A study of Mus musculus with 48 samples.

Results

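The nuclear genes that encode subunits of the mitochondrial respiratory chain and ATP synthase were followed across 48 mouse brain RNA libraries. Members were the protein-coding genes whose symbol belongs to the Nduf, Sdh, Uqcr, Cyc1, Cox4 to Cox8 or Atp5 families, 85 of 38293 rows of the count table. They comprised 37 genes of complex I, 4 of complex II, 9 of complex III, 18 of complex IV and 17 of complex V. Male C57/Bl6 mice, 9 weeks old and fasted for 6 h, received an intraperitoneal injection (10 µL per g of body weight) of saline, of AC3174 (1 µg/kg), of AC170222 (2.5 µg/kg) or of a combination of the drugs. AC3174 is an agonist of the GLP-1 receptor and AC170222 an agonist of the CCK receptor, and the question was what each drug and their combination do to these brain regions. The labels do not state the doses used in the combination, how long after injection the tissue was taken or how many mice make up a sample, and the protocol spells the name of the CCK drug in 2 ways with more than 1 dose. The 2 dissected regions were the DVC (dorsal vagal complex), where vagal signals from the gut enter the hindbrain, and the MBH (mediobasal hypothalamus), which controls feeding. From each homogenate total RNA (input) and RNA from an immunoprecipitation (IP) of ribosomes with an antibody against ribosomal protein S6 phosphorylated at serines 240 and 244 were sequenced. Phosphorylated S6 is more abundant in active neurons, so the IP favours ribosomes, and the mRNA on them, of such cells. Crossing region, RNA kind and treatment gave 16 groups of 3 libraries, and nothing in the labels says whether they came from separate animals, so p-values measure the spread between these libraries.

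The respiratory chain sits in the inner mitochondrial membrane. Complex I oxidises NADH, complex II oxidises succinate, complex III passes the electrons to cytochrome c and complex IV hands them to oxygen, and the protons that complexes I, III and IV move drive ATP synthesis by complex V. Most subunits are made in the cytosol from the nuclear genes described here and are imported, while a small set of core subunits is encoded and translated within the mitochondrion, on ribosomes that lack S6. Neurons depend on this pathway for most of their ATP, and several complex IV subunits exist as a ubiquitous and a tissue-specific isoform from separate genes.

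Total counts per library were 29492622 to 95079227 in DVC input, 102116189 to 191252522 in DVC IP, 36542586 to 80084056 in MBH input and 21782798 to 73940674 in MBH IP, so counting error is small for all but the rarest members. Genes with at least 1 count ranged from 9925 to 16796 in DVC IP and from 6285 to 15913 in MBH IP. Fewer than 12000 such genes were found in the IP libraries AC3174 3 of DVC and, of MBH, AC3174 2 and 3, AC170222 2 and 3 and saline 3. Levels are CPM, read counts relative to library sizes scaled by the trimmed mean of M values (TMM) over the 48 libraries. The hindbrain marker Hoxa5 had counts in 12 of 12 DVC and 0 of 12 MBH input libraries, and the hypothalamic marker Pomc was at 45.5 to 98.7 CPM in MBH input against 2.54 to 6.16 CPM in DVC input. The codes in the sample descriptions fall into 3 sets of 8 libraries per region, which the labels do not call a batch. Libraries are named by treatment and sample number, so that AC3174 1 is the first library of that group. Set 1 holds saline 1 and 2 and AC170222 1 and 2, set 2 holds saline 3, AC3174 1, AC170222 3 and combination 1, and set 3 holds AC3174 2 and 3 and combination 2 and 3. Saline and AC3174 or the combination therefore share only set 2.

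The members together took 2.78% to 3.59% of all counts in DVC input, 3.13% to 6.32% in DVC IP, 2.29% to 4.10% in MBH input and 1.90% to 3.60% in MBH IP. Their summed level had a lowest, median and highest value of 28374, 30024 and 35647 CPM in the 12 DVC input libraries and 31503, 56636 and 67662 CPM in the 12 DVC IP libraries. The corresponding values were 22548, 25935 and 41676 CPM in MBH input and 18636, 25833 and 34762 CPM in MBH IP. The DVC IP libraries were the ones with the high sums, although AC3174 1 and AC170222 3 lay within the range of the input libraries and combination 1 just above it, and these 3 libraries all belong to set 2. In bulk tissue, fewer cells of a type and less RNA per cell cannot be told apart, and this holds for every level below.

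**Figure D1:**
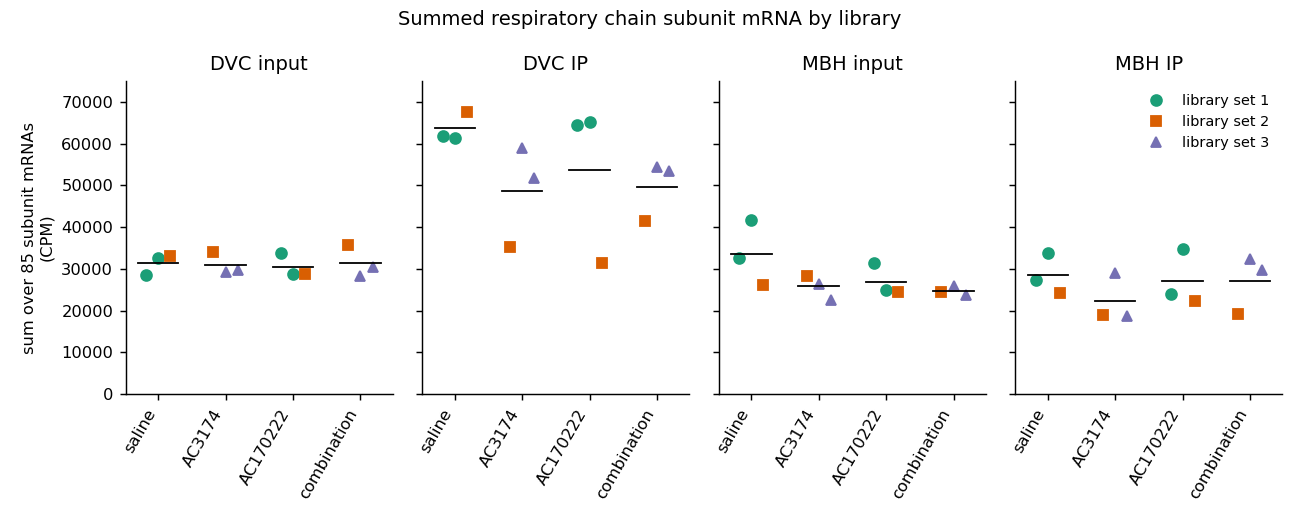
Summed level of the 85 subunit mRNAs (CPM) in each of the 48 libraries, by region, RNA kind and treatment, with the library set as colour and shape and the mean of 3 libraries as a black line. In DVC IP the AC3174, AC170222 and combination libraries of set 2 lie below the others.

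Between genes, levels were compared as CPM per kb of merged exons. In DVC input the highest median levels per kb were those of Cox8a (1003 CPM per kb), a small complex IV subunit, Atp5b (841), the catalytic beta subunit of ATP synthase, Cox6b1 (766), Cox6a1 (625), Atp5a1 (578), the alpha subunit, and Cox4i1 (543). Cox8a ranked 1 in all 4 combinations of region and RNA kind. When the length of the principal transcript was used instead, a choice made after the data were seen, Atp5b ranked 1 and Cox8a 2 in DVC input. The merged exons of some genes include transcripts with retained introns. By CPM without length, Atp5b had 3216, 3564 and 3934 CPM as lowest, median and highest of the 12 DVC input libraries. Sdha, the flavoprotein that oxidises succinate, had 976, 1323 and 1898 CPM, above Sdhb, the iron-sulphur subunit, at 378, 489 and 573 CPM. The tissue-specific complex IV isoforms stood at the other end, from 6.81 CPM per kb for Cox7a1 through 3.66 for Cox6b2, 1.81 for Cox8b, 1.26 for Cox4i2 and 0.805 for Cox7b2 to a median of 0 for Cox6a2 and Cox8c. Cox8c, listed at 0 in every DVC input library, did not pass the count filter of any fit.

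The 6 isoform pairs of complex IV were each led by the ubiquitous gene. As a share of the pair per kb, the hypoxia- and lung-associated isoform Cox4i2 reached a median of 0.227% of Cox4i1 plus Cox4i2 in DVC input, the testis isoforms Cox6b2 and Cox7b2 0.469% and 0.206%, and the heart and skeletal muscle isoforms Cox8b and Cox7a1 0.22% and 1.85%. Cox6a2, the heart and skeletal muscle isoform of subunit VIa, made up 1.38, 3.84 and 6.96% (lowest, median and highest) of its pair in MBH input and had a median of 0 in DVC input, where its highest share was 0.219%. Of 9 skeletal and cardiac muscle markers 8 could be tested between the regions and 1 was called, lower in DVC. Their summed level was 13.0 to 39.4 CPM in MBH input and 0.937 to 22.4 CPM in DVC input, 6 of the 9 had a median of 0 in MBH input, and their part in the Cox6a2 level was not tested.

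**Figure D2:**
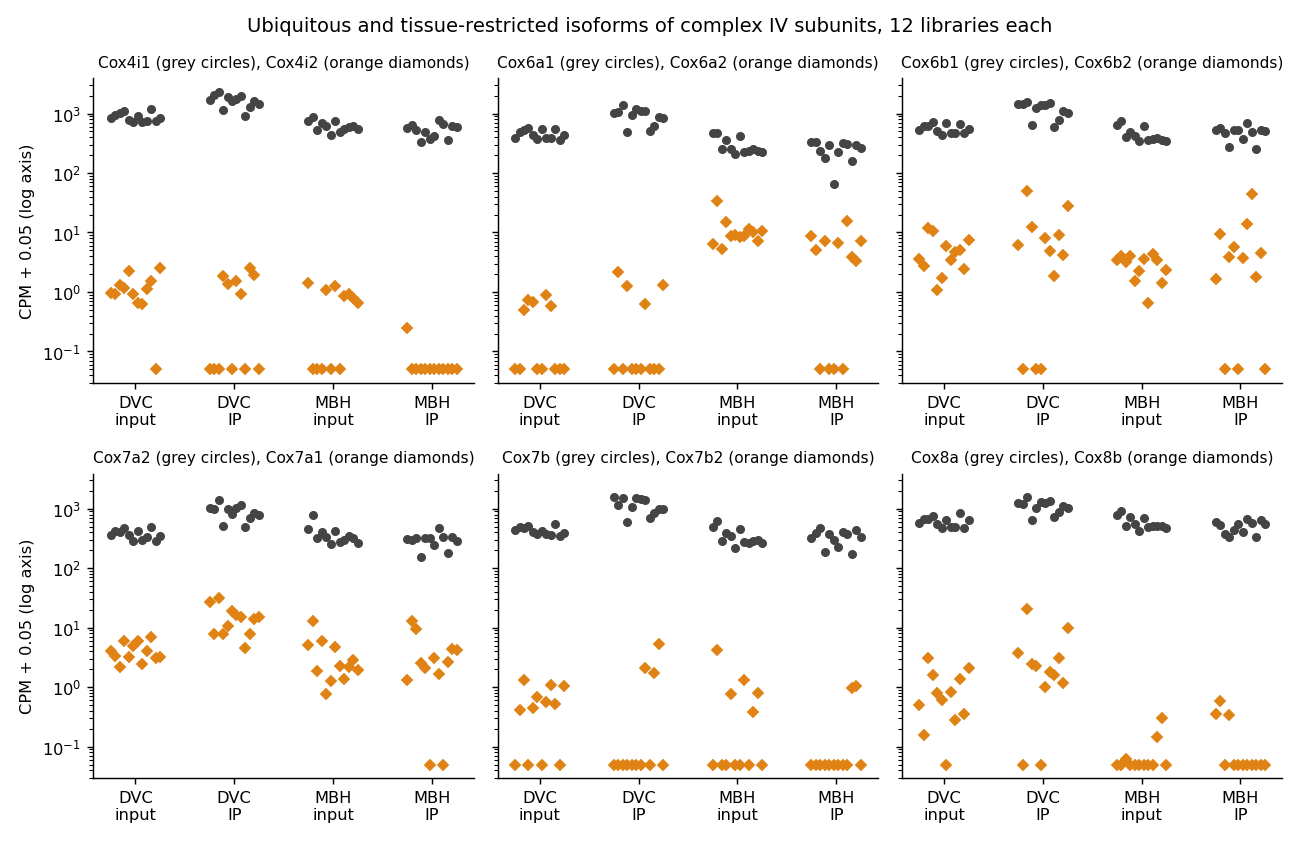
CPM + 0.05 on a log axis of the ubiquitous (grey circles) and tissue-restricted (orange diamonds) gene of each complex IV isoform pair in the 12 libraries of each region and RNA kind. Cox6a2 stands well above the floor in MBH input and at or near it in DVC input.

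Promoter sequence was examined as a property that the choice of members did not use. Of the 85 members, 67 matched RefSeq's table of start sites (GRCm38.p6, 250 bases before to 50 after the start), of 17486 genes in all. The binding motif of NRF1, a transcription factor known for driving respiratory chain genes, was searched on both strands as GCGC, any 2 bases and GCGC, and was found in 19 of 67 members (28.36%) and in 9.61% of all promoters. The form with A and T as the middle bases, a subset of those matches, was in 7.46% of members and 1.47% of all. The ETS-type motif CCGGAAG, bound by the factor GABP, was in 23.88% of members against 12.95%, the YY1-type motif AANATGGC in 23.88% against 7.46%, and the ERR motif TCAAGGTCA in 2.99% against 0.38%. TATAAA was in 10.45% of members against 14.8% of all, and median GC content was 57.3% against 56.3%. These matches are descriptions of the letters in the window and are not evidence of binding. The promoters of 4 members are printed, 250 bases upstream of the start, in the direction of transcription, with NRF1 matches in capitals, to show members with and without them. Sdha (chr13:74350241-74350490, minus strand) held 3 NRF1 matches and Cox6a1 (chr5:115348959-115349208, minus strand) 2, and the isoform pair mates Cox8a (chr19:7217617-7217866, minus strand) and Cox8b (chr7:140900447-140900696, minus strand), the abundant ubiquitous and the nearly silent muscle isoform, had none. In the longer window searched, Cox8b is 1 of the members with TATAAA, with a match that does not lie within the printed 250 bases, and no TATAAA lies in the 4 printed stretches. The Cox8a and Cox8b stretches had GC contents of 52.8% and 47.2%.
Sdha: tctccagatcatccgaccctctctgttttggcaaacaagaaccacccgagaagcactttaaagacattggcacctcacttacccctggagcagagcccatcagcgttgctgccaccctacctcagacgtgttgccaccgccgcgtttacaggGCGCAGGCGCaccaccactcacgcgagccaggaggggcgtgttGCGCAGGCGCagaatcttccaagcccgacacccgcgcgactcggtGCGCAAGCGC
Cox6a1: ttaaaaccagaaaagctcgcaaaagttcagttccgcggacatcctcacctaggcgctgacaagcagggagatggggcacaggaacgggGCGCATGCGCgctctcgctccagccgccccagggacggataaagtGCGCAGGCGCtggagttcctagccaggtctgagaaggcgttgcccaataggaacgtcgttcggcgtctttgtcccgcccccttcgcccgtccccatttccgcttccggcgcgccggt
Cox8a: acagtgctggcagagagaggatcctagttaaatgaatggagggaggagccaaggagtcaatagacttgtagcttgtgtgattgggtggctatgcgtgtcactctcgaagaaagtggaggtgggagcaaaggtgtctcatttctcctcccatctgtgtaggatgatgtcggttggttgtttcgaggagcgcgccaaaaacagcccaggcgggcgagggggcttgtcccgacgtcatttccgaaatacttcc
Cox8b: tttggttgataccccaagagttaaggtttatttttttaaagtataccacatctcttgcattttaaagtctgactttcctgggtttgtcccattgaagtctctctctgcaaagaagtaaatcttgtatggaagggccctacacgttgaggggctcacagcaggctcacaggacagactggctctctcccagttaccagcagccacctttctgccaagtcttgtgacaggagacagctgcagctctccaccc

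In DVC, subunit mRNAs of all 5 complexes were higher in the phospho-S6 IP than in the input. With edgeR's quasi-likelihood test and Benjamini-Hochberg adjustment over all 18465 genes tested (a call is an adjusted p below 0.05), 73 of 84 members tested were higher and 0 lower, and 78 had an unadjusted p below 0.05 in either direction (all genes 31.7%). Among all genes tested, 6.8% were called higher and 13.6% lower. Among the 2369 genes with a mean of 100 CPM or more, where 76 members lie, 32.6% were called higher, against 71 of those 76 members. The median log2 difference was 0.78 for members, -0.37 for all genes and 0.27 for genes of 100 CPM or more. By complex, the calls were 34 of 37 for complex I (median log2 0.73), 4 of 4 for complex II (0.55), 8 of 9 for complex III (0.79), 11 of 17 for complex IV (1.03) and 16 of 17 for complex V (0.76). DESeq2 called 70 members higher and 2 lower, without its share of all genes set beside these counts. The summed member level of the IP exceeded that of the input of the same homogenate in 12 of 12 homogenates, and 24 members did so individually in 12 of 12, 47 in at least 11 and 63 in at least 10. These counts by homogenate were not made over all genes, so they describe the members and show no excess over other genes.

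Complex I has a matrix arm that takes electrons from NADH and a membrane arm that pumps protons. Ndufs1 (chr1:63143596-63176833, minus strand), an iron-sulphur subunit of the matrix arm, had 245, 308 and 407 CPM as lowest, median and highest of the 12 DVC input libraries and 389, 731 and 890.4 CPM in the IP (log2 1.13 ± 0.12, adjusted p = 1.33e-05, 2.18-fold). Ndufc1 (chr3:51404677-51408988, minus strand), a small accessory subunit, had 117, 176 and 237 CPM in input and 209, 412 and 622 CPM in IP (log2 1.14 ± 0.18, adjusted p = 0.00037). Ndufa3 (chr7:3617373-3620327, plus strand), another accessory subunit, had 139, 192 and 292 CPM in input and 195, 411 and 822 CPM in IP (log2 1.09 ± 0.20, adjusted p = 0.00098). For these members the IP and input ranges overlapped, and the IP was above the input of the same homogenate in 12, 12 and 11 of 12 homogenates. The lowest IP libraries were saline 3 for Ndufs1, AC170222 3 for Ndufc1 and AC170222 3 for Ndufa3. Ndufv1, which binds FMN and accepts the electrons from NADH, rose (485 to 775 CPM as medians, log2 0.59 ± 0.13, adjusted p = 0.00396), as did Ndufab1, the mitochondrial acyl carrier protein (log2 0.62 ± 0.09, adjusted p = 0.000186). Ndufa4, which bears a complex I symbol but is known as a subunit of cytochrome c oxidase, rose from a median of 613 to 1367 CPM (log2 0.99 ± 0.14, adjusted p = 0.000131). The complex I members not called were Ndufs3 (log2 0.41 ± 0.15, adjusted p = 0.0624), a core subunit of the matrix arm, Ndufa9 (log2 0.32 ± 0.16, adjusted p = 0.189) and Ndufa8 (log2 0.30 ± 0.13, adjusted p = 0.107). Ndufs3 was called without saline 3, AC3174 1, AC3174 3 or AC170222 3 (adjusted p from 0.00301 to 0.0412). Without strand information, reads of Ndufs1 and Ndufa3 cannot be told apart from those of the genes that overlap their exons on the other strand, Eef1b2 and Tfpt.

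Complex II, the succinate dehydrogenase shared with the citric acid cycle, was higher in all 4 members, with the lowest median of the 5 complexes, a difference that was not tested. With the homogenate as a block Sdha (adjusted p = 0.0681) and Sdhc (0.105) were no longer called, which leaves 2 of 4, and Sdhc also lost the call with RLE scaling (0.0697) and without saline 3 (0.0502). Its largest difference was in Sdhd (chr9:50596357-50603812, minus strand), a membrane anchor, with 249, 328 and 392 CPM in input and 369.8, 484 and 762 CPM in IP (log2 0.64 ± 0.11, adjusted p = 0.000591, 1.56-fold). Sdhb, the iron-sulphur subunit, had 378, 489 and 573 CPM and 346, 763 and 992 CPM (log2 0.59 ± 0.11, adjusted p = 0.00172). Sdha gave log2 0.51 ± 0.12, adjusted p = 0.00585, and the anchor Sdhc log2 0.47 ± 0.14, adjusted p = 0.0271. All 4 had overlapping ranges in IP and input.

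In complex III the small subunits led. Uqcr10 (chr11:4701973-4704342, minus strand) had 145, 211 and 285 CPM in input and 299, 488 and 1120.0 CPM in IP (log2 1.34 ± 0.18, adjusted p = 7.11e-05, 2.54-fold), and Uqcr11 (chr10:80402997-80406830, minus strand) had 220.0, 249.98 and 343 CPM and 371, 677 and 866 CPM (log2 1.27 ± 0.14, adjusted p = 1.26e-05). For these 2 genes every IP library lay above every input library. Uqcrh, the hinge protein between cytochromes c1 and c, rose from a median of 303 to 702 CPM (log2 1.26 ± 0.17, adjusted p = 8.44e-05), with overlapping ranges. The core subunit Uqcrc1 (log2 0.52 ± 0.12, adjusted p = 0.00633) and cytochrome c1, Cyc1 (log2 0.27 ± 0.09, adjusted p = 0.0358) were also called higher. The Cyc1 call was lost with DESeq2 (adjusted p = 0.16), RLE scaling (0.237), no count filter (0.0758), the homogenate as a block (0.0673) and without saline 3 (0.0534). Uqcrfs1, the Rieske iron-sulphur protein, had 299.9, 378 and 420.3 CPM in input and 64.0, 446 and 654 CPM in IP (log2 0.03 ± 0.20, adjusted p = 1.00) and was not called. Its lowest IP libraries were AC170222 2 and AC170222 1, which also belong to the lowest for Cox5a.

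Complex IV held the widest spread of differences. Cox7b (chrX:106015700-106022450, plus strand), an X-linked small subunit, had 342, 413 and 557 CPM in input and 589.9, 1120.4 and 1565 CPM in IP (log2 1.44 ± 0.15, adjusted p = 1.1e-05, 2.71-fold), and Cox7c (chr13:86044816-86046904, minus strand) had 127, 214 and 271 CPM and 276, 541 and 1042 CPM (log2 1.33 ± 0.19, adjusted p = 0.00016). Every IP library was above every input library for both. Cox7a1, a muscle isoform, had 2.10, 3.64 and 6.81 CPM in input and 4.59, 14.6 and 31.5 CPM in IP (log2 1.85 ± 0.41, adjusted p = 0.00465), at a level far below that of its mate Cox7a2 (log2 1.27 ± 0.15, adjusted p = 2.88e-05), and with the homogenate as a block Cox7a1 was not called (adjusted p = 0.0851). Cox4i1, Cox6a1, Cox6b1, Cox8a and Cox5b rose by log2 0.90, 1.03, 1.08, 0.90 and 0.97. Cox5a, a subunit on the matrix side of the enzyme, was not called (log2 0.28 ± 0.11, adjusted p = 0.0761), though it was without saline 1, AC3174 1, AC170222 1, AC170222 2 or combination 1 (0.00827 to 0.0393). The rare isoforms Cox4i2 (0 to 2.44 CPM in IP), Cox6a2 (0 to 2.09 CPM), Cox6b2 (0 to 49.8 CPM), Cox7b2 (0 to 5.27 CPM) and Cox8b (0 to 20.7 CPM) were not called either, with adjusted p from 0.0894 to 0.743. DESeq2 called 2 of these rare isoforms lower, Cox4i2 and Cox7b2.

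In complex V the largest differences were again in small subunits. Atp5mpl (chr12:111961375-111966977, minus strand), a short membrane-sector protein, had 215, 277 and 372 CPM in input and 388, 866 and 1694 CPM in IP (log2 1.58 ± 0.18, adjusted p = 1.71e-05, 2.99-fold), without overlap. Atp5e (chr2:174461072-174464105, minus strand), the epsilon subunit of the central stalk, had 83.9, 129 and 187 CPM and 183, 362 and 707 CPM (log2 1.47 ± 0.20, adjusted p = 9.47e-05), and Atp5k (chr5:108433244-108434448, minus strand), subunit e of the membrane sector, 61.01, 109.8 and 156 CPM and 124, 296 and 679 CPM (log2 1.43 ± 0.24, adjusted p = 0.000585). The ranges of these last 2 overlapped, with the IP above the input in 11 and 11 of 12 homogenates. The catalytic subunits Atp5a1 and Atp5b rose by log2 0.92 ± 0.20 and 0.70 ± 0.15. Of the 3 genes for the c subunit of the rotor ring, which give the same mature protein, Atp5g1 (log2 1.09 ± 0.17, adjusted p = 0.000222) and Atp5g3 (log2 0.66 ± 0.14, adjusted p = 0.0035) rose and Atp5g2 did not pass the test (log2 0.40 ± 0.27, adjusted p = 0.345). Atp5g2 shares 38.35% of its 50-base stretches with other genes, so its counts are uncertain. The same limit holds to a lesser degree for called members such as Uqcrb (25.42%), Cox7c (22.11%), Ndufb4 (18.27%) and Atp5g1 (10.16%). Others, such as Uqcr10 and Atp5mpl, share 0%. Atpif1, the inhibitor of the enzyme, which lies outside the symbol rule, rose too (log2 1.06 ± 0.16, adjusted p = 0.000186), while Atp5s, which is not a core subunit, gave log2 0.52 ± 0.14, adjusted p = 0.0145. Over all 5 complexes, 5 members (Cox7b, Cox7c, Uqcr10, Uqcr11 and Atp5mpl) had all 12 IP libraries above all 12 input libraries, as did 0.271% of all genes tested.

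**Figure D3:**
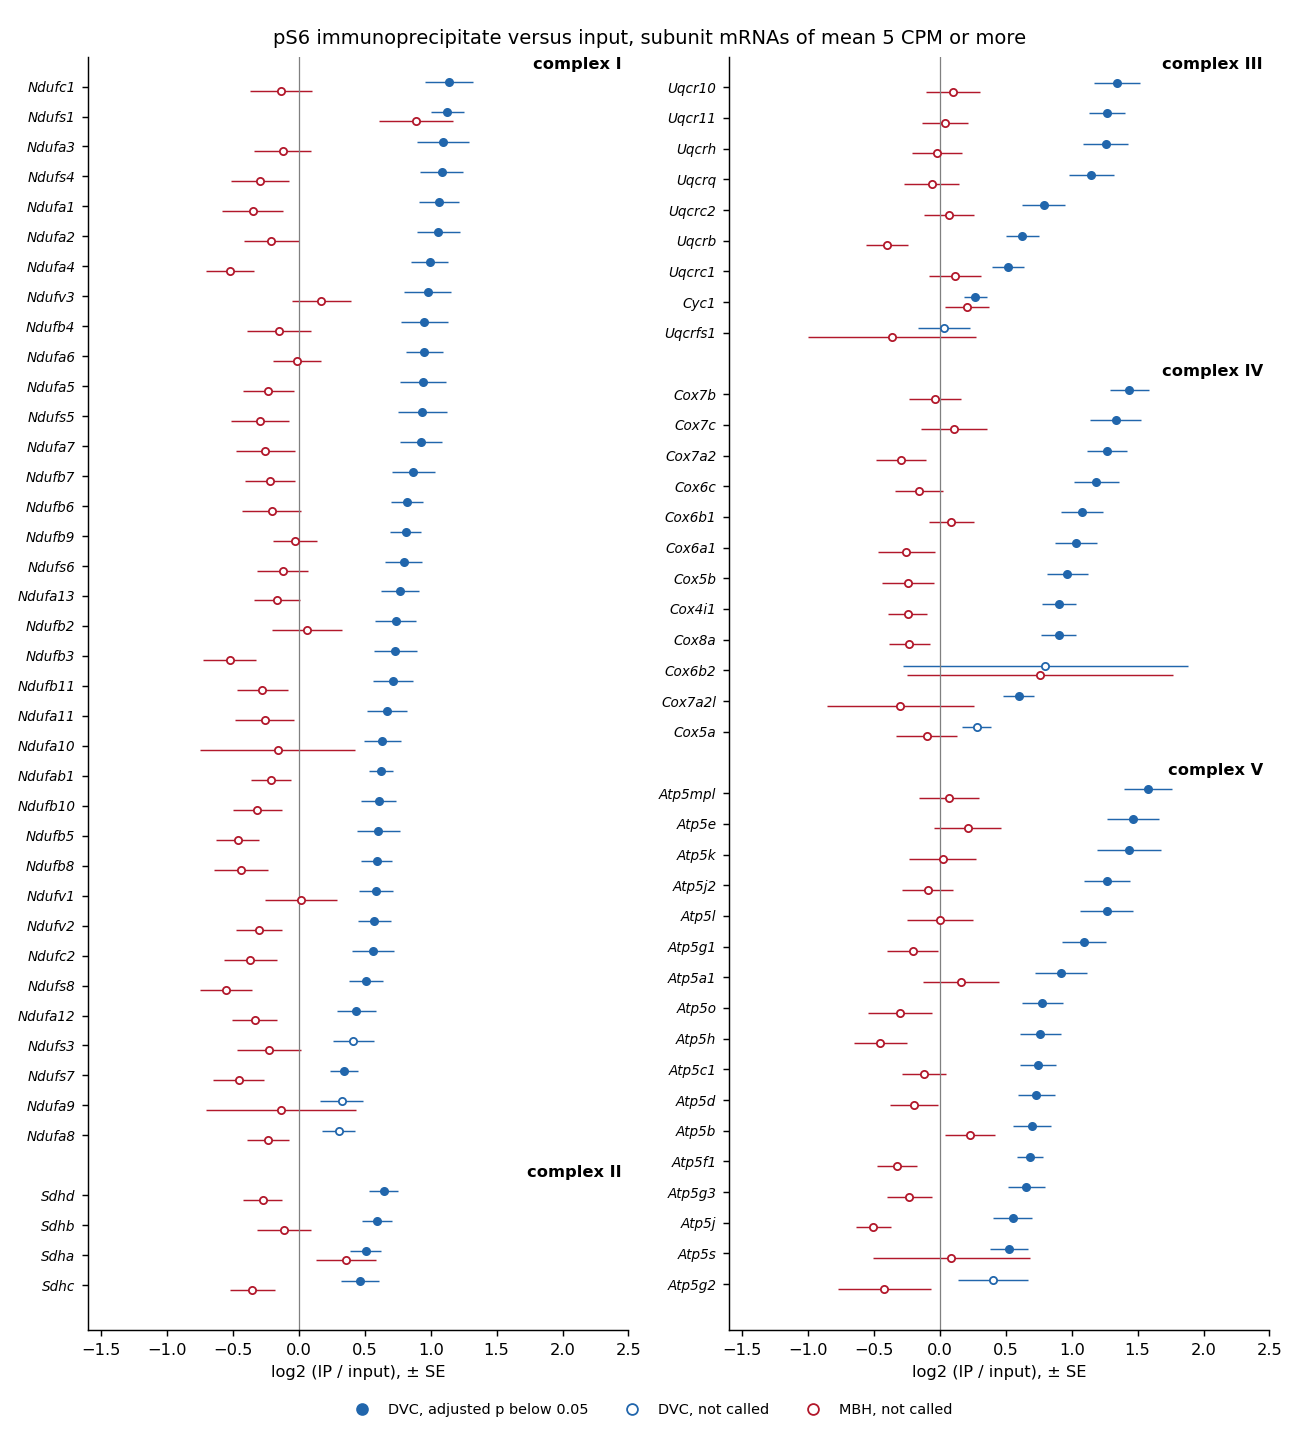
Log2 difference between IP and input (points, with ± SE from edgeR) in DVC (blue) and MBH (red) for members with a mean of 5 CPM or more in both regions (1 not shown), by complex, filled where called. Nearly all DVC points are filled and right of 0, and no MBH point is filled.

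The difference varied among homogenates. The log2 ratio of the summed member level, IP over input, was 1.11, 0.91 and 1.03 in saline 1, 2 and 3, 0.05, 1.01 and 0.81 in AC3174, 0.93, 1.18 and 0.13 in AC170222 and 0.21, 0.94 and 0.81 in the combination. The 3 low values, in AC3174 1, AC170222 3 and combination 1, are the drug-treated homogenates of library set 2, while saline 3 of that set lay with the rest. Fitted within a set, as an alternative chosen after seeing the data, 71 of 82 members were higher in set 1 (median log2 1.05), 47 of 83 in set 3 (0.91) and 0 of 84 in set 2 (0.36), where edgeR called no gene at all and 5 members had an unadjusted p below 0.05. For sets 1 and 3 the share of all genes called was not set beside these counts, nor for set 2 the share at an unadjusted p below 0.05. The counts therefore show no excess of members within a set. DESeq2 was not run within sets.

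Among other genes the difference fell as transcript length rose, and among members it was largest for the shortest transcripts without a further fall. The median length of the members' principal transcripts was 809 nt, against 2602 nt for all coding genes. In bins of principal transcript length with upper limits of 800, 1500, 3000 and 5000 nt, genes of 100 CPM or more outside the member list had median log2 differences of 0.66, 0.47, 0.24 and 0.17 and members 0.94, 0.64, 0.68 and 0.68 (34, 23, 15 and 4 members). In the shortest bin 65.9% of the other genes were called higher against 97.1% of members, and in the bin up to 3000 nt 31.0% against 100% of 15 members. The part of length in the members' difference was not tested beyond these bins.

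Other genes of the pathway and of the cells in the sample were read from the same fit. The 13 mitochondrially encoded subunits were all lower (median log2 -4.67), with a summed level of 4549 to 33277 CPM in input and 10.4 to 1861 CPM in IP. Assembly factors of the complexes were higher in 18 of 44 tested (median 0.53) and citric acid cycle enzymes in 13 of 16 (0.73), with 0 lower in either list. Of 12 regulators of mitochondrial gene expression, edgeR called 0 in either direction (median -0.41, 1 lower at an unadjusted p below 0.05). Neuronal markers were higher in 5 of 12 and lower in 1 (median 0.51), and their summed level ranged from 13846 to 16805 CPM in input and from 16060.3 to 38963 CPM in IP. Oligodendrocyte markers were lower in 4 of 8, microglial markers in 5 of 8 and endothelial markers in 3 of 7, and none of these was higher. Of 8 astrocyte markers 2 were higher, S100b and Gfap, and 0 lower (median log2 -0.03). By median level Aldh1l1 and Aldoc were also higher in IP. Lower in IP were Aqp4 (88.1 to 30.2 CPM), Gja1 (82.2 to 28.3), Slc1a2 (94.3 to 31.1) and Slc1a3 (83.2 to 36.8). The sum of the 8 astrocyte markers was 3513 to 5099.8 CPM in input and 3671 to 14738 CPM in IP, most of it Aldoc (medians 3051 and 4596 CPM). The sums of the oligodendrocyte, microglial and endothelial lists were 6206 to 9260.4, 56.4 to 97.5 and 6.24 to 39.5 CPM in input and 1581 to 6990.0, 0 to 46.8 and 0 to 183 CPM in IP. Red blood cell markers were higher in 2 of 5. The endothelial list had 7 of 7 and the microglial list 5 of 8 markers at a median of 0 in IP, and 1 of 12 neuronal markers was at 0 in at least 1 DVC library. The part of these cell types in the members' difference was not tested.

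**Figure D4:**
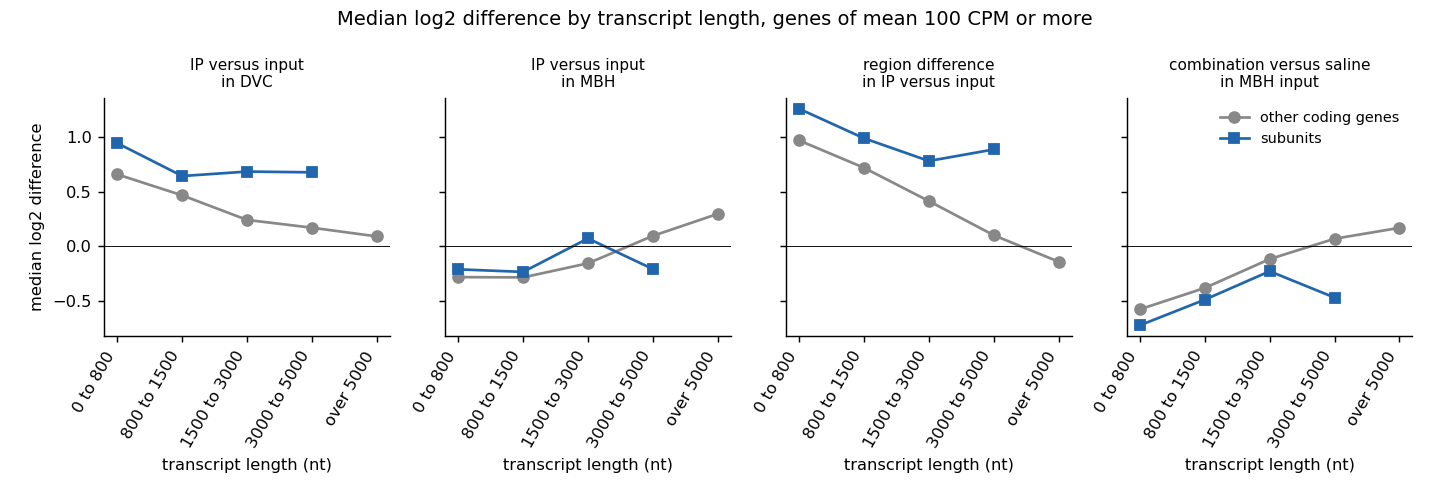
Median log2 difference of the subunit mRNAs (blue squares) and of other coding genes (grey circles), all with a mean of 100 CPM or more, in bins of principal transcript length, for 4 comparisons. In DVC the subunits lie above the other genes in the 4 bins they fill.

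In MBH the subunit mRNAs were not called different between IP and input. edgeR called 0 of 84 members in either direction, of 17461 genes of which 0.16% were higher and 0.292% lower, and 13 members had an unadjusted p below 0.05 (all genes 11.3%), 12 of them with a lower IP level. DESeq2 called 3, Ndufs1 higher and Atp5j and the nearly silent Cox7b2 lower, and its share of all genes was not set beside them. The members' median log2 difference was -0.21, against -0.28 for all genes and -0.07 for genes of 100 CPM or more, and by complex the medians were -0.23 (I), -0.19 (II), 0.04 (III), -0.23 (IV) and -0.12 (V). The log2 ratio of the summed level was above 0 in 4 of 12 homogenates and ran from -0.58 to 0.49. Within library sets 1, 2 and 3 edgeR called 0 members in each, with 5, 9 and 1 at an unadjusted p below 0.05 and medians of -0.30, -0.46 and 0.05, and DESeq2 was not run there. The share of all genes at that level within a set was not set beside these counts.

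The member with the largest positive difference among abundant genes was Ndufs1, with 117, 249 and 316 CPM in MBH input and 41.4, 471 and 695 CPM in IP (log2 0.89 ± 0.28, adjusted p = 0.162). The ranges overlapped, and the IP was higher in 10 of 12 homogenates, with AC3174 3 as the lowest IP library. Without AC3174 3 edgeR called Ndufs1 (log2 1.06 ± 0.20, adjusted p = 0.0221). A further fit left out the 5 IP libraries of fewer than 12000 detected genes and the input libraries of the same homogenates. There the log2 difference of Ndufs1 was 1.51 and the median of all members -0.55. That fit keeps only 1 homogenate each for AC3174 and AC170222, so no call is read from it. The smallest p of an abundant member on the lower side was that of Atp5j, coupling factor 6 of the stator, with 447, 497 and 765 CPM in input and 241, 394 and 577 CPM in IP (log2 -0.50 ± 0.13, adjusted p = 0.103, 0.0141 by DESeq2). The role panel gave log2 0.02 ± 0.27 for Ndufv1, log2 -0.52 ± 0.19 for Ndufa4, log2 0.36 ± 0.23 for Sdha, log2 0.11 ± 0.20 for Uqcrc1, log2 -0.24 ± 0.15 for Cox4i1, log2 -0.03 ± 0.20 for Cox7b and log2 0.23 ± 0.19 for Atp5b, and over its 25 abundant genes ran from -0.52 (Ndufa4) to 0.89 (Ndufs1). Of the other lists, 3 of 13 mitochondrially encoded subunits were lower, and edgeR called 0 of 12 neuronal markers (1 higher at an unadjusted p below 0.05) and 0 of 16 citric acid cycle enzymes (4 at that level).

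The region difference was tested directly, as the IP-versus-input difference in DVC minus that in MBH over all 48 libraries. It was higher in DVC for 57 of 84 members and lower for 0, with a median log2 of 1.07, while 2.33% of the 19416 genes tested were higher and 2.06% lower (median 0.03). At an unadjusted p below 0.05 there were 68 members (all genes 13.4%). Among genes of 100 CPM or more 13.3% were higher. The calls were 28 of 37 for complex I, 2 of 4 for complex II, 5 of 9 for complex III, 9 of 17 for complex IV and 13 of 17 for complex V. With the homogenate as a block, which the shared homogenate of IP and input allows, 30 members were called. With the scaling of DESeq2's size factors (RLE) in edgeR 34 were called, and that scaling moved the median of all genes from 0.03 to -0.33 and that of members to 0.70. In the comparisons within DVC and within MBH it moved the medians of all genes to -0.47 and -0.17 and those of members to 0.66 and -0.09. Leaving out AC170222 1 in both regions left 36.

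The members with the largest region difference were Cox7a2 (log2 1.61 ± 0.24, adjusted p = 0.000114), Ndufa4 (log2 1.57 ± 0.23, adjusted p = 0.000114), Atp5mpl (log2 1.56 ± 0.29, adjusted p = 0.000986) and Cox7b (log2 1.52 ± 0.25, adjusted p = 0.000319). Cox7a2, the ubiquitous isoform of subunit VIIa, had 290.0, 359 and 496 CPM in DVC input and 496, 911 and 1425 CPM in DVC IP, and 258, 330.1 and 789.6 CPM in MBH input and 156, 313 and 472 CPM in MBH IP. The 2 input groups overlapped, and the DVC IP libraries carried the high values. Ndufa4 had medians of 613 and 1367 CPM in DVC and 469 and 391 CPM in MBH. Other named members were Ndufa1 (log2 1.46 ± 0.28, adjusted p = 0.00115) and Ndufs4 (log2 1.43 ± 0.28, adjusted p = 0.00157) of complex I, Sdhd (log2 0.98 ± 0.17, adjusted p = 0.000599) and Sdhc (log2 0.88 ± 0.21, adjusted p = 0.00966) of complex II, and Uqcrh (log2 1.33 ± 0.25, adjusted p = 0.00107), Uqcr10 (log2 1.29 ± 0.27, adjusted p = 0.00288) and Uqcr11 (log2 1.29 ± 0.22, adjusted p = 0.000392) of complex III. Cox6c gave log2 1.39 ± 0.25, adjusted p = 0.000686, and in complex V Atp5k (log2 1.46 ± 0.34, adjusted p = 0.00868) and Atp5j2 (log2 1.41 ± 0.26, adjusted p = 0.00087) followed Atp5mpl. Sdhc lost this call with RLE scaling (adjusted p = 0.197), with the homogenate as a block (0.0986), without the IP libraries of low complexity (0.0509) and in 8 of 12 fits that leave out 1 homogenate number (0.0549 to 0.0902), all but those without saline 2, AC3174 1, AC3174 3 and AC170222 3. Uqcr10 (0.062) and Atp5k (0.138) lost it with the block, and Atp5k also without AC170222 1 or combination 2 (0.0553 to 0.0558). Ndufs1, which also had a positive difference in MBH, was not called here (log2 0.31 ± 0.31, adjusted p = 0.973), nor were Sdha (log2 0.21 ± 0.26, adjusted p = 1.00), Uqcrfs1 (log2 0.44 ± 0.69, adjusted p = 1.00) and Cyc1 (log2 0.12 ± 0.18, adjusted p = 1.00). Beside them 5 of 12 neuronal markers, 4 of 44 assembly factors and 3 of 16 citric acid cycle enzymes had a higher region difference, and edgeR called 0 of 13 mitochondrially encoded subunits, also 0 at an unadjusted p below 0.05. By transcript length, other genes had medians of 0.97, 0.72, 0.41 and 0.10 in the 4 bins above and members 1.26, 0.99, 0.78 and 0.89. The panel ran from 0.12 (Cyc1) to 1.61 (Cox7a2).

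In total RNA, the regions differed for few members and by small amounts. In DVC against MBH input, 11 of 84 members were higher and 3 lower (median log2 0.05), while 11.7% of 18576 genes were higher and 10.2% lower, so the share of members called was not above that of all genes. Atp5b (chr10:128083273-128090391, plus strand), the catalytic beta subunit, had 3216, 3564 and 3934 CPM in DVC and 2143, 2414 and 2904 CPM in MBH (log2 0.50 ± 0.04, adjusted p = 6.76e-08, 1.41-fold), with all 12 DVC libraries above all 12 MBH libraries, as for 2.35% of genes tested. Atp5a1, the alpha subunit that pairs with it, was higher by less (log2 0.18 ± 0.05, adjusted p = 0.00974). The higher members of complex I included Ndufa9 (log2 0.61 ± 0.09, adjusted p = 7.75e-05), Ndufb8 (log2 0.40 ± 0.12, adjusted p = 0.0259) and Ndufv1 (log2 0.35 ± 0.08, adjusted p = 0.00215), and the lower ones were Ndufa7 (log2 -0.54 ± 0.16, adjusted p = 0.0165) and Ndufs4 (log2 -0.33 ± 0.11, adjusted p = 0.0413), with overlapping ranges for these 5. The Ndufs4 call was lost with RLE scaling (adjusted p = 0.0654), without a count filter (0.0663) and in 9 of 12 fits that leave out 1 library pair (0.0539 to 0.116), all but those without saline 3, AC3174 1 and combination 1. Ndufb8 lost it in 5 of these 12 fits (0.0514 to 0.0777), without saline 1, AC3174 1, AC3174 3, AC170222 3 or combination 1, and Ndufa7 without AC3174 2 (0.0579 to 0.0579). Cyc1 was higher (log2 0.46 ± 0.12, adjusted p = 0.00758), as were Cox6a1 (log2 0.59 ± 0.14, adjusted p = 0.0048), Cox4i1 (log2 0.47 ± 0.11, adjusted p = 0.0056) and Cox5a (log2 0.46 ± 0.13, adjusted p = 0.017), the last of these not without combination 1 or 3 (0.0511 to 0.0519). The panel of 25 abundant genes ran from -0.17 (Atp5g2) to 0.59 (Cox6a1). Of complex II, none of the 4 members was called by edgeR or by DESeq2, and 1 had an unadjusted p below 0.05, a level reached by 33.2% of all genes.

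Of the muscle-type isoforms of complex IV, Cox6a2 separated the regions, and Cox8b was called in the opposite direction at levels near the floor. A further one, Cox7a1, made up a median of 1.85% of its pair in DVC input and 1.32% in MBH input, with overlapping ranges. Cox6a2 (chr7:128205435-128206387, minus strand) was at 5.33, 9.01 and 33.8 CPM in MBH input (lowest, median and highest) and at 0 to 0.832 CPM in DVC input, with all 12 MBH libraries above all 12 DVC libraries (adjusted p = 0.000146), as for 1.32% of genes tested. Its exons overlap Itgad, so without strand the reads of those genes cannot be told apart. In the IP libraries of MBH it was at 0, 4.40 and 15.8 CPM. Cox8b, whose promoter is printed above, was at 0 to 3.04 CPM in DVC input and 0 to 0.254 CPM in MBH input (adjusted p = 0.000524), with overlapping ranges. Cox8b passed the count filter of the drug fits in DVC input and not in MBH input. Its entry into the region test thus rested on the DVC libraries, which favours its call. That call, counted among the higher members above, is therefore no support for a region difference. Cox6a2 is near the limit of detection in DVC and Cox8b in both regions, so no fold is given for either. Their ubiquitous mates Cox6a1 and Cox8a were 438 and 621 CPM in DVC and 254 and 522 CPM in MBH as medians. In the same comparison 10 of 12 neuronal, 8 of 8 astrocyte and 8 of 8 oligodendrocyte markers were higher in DVC, and the part of cell composition in the members' differences was not tested.

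The drug comparisons had 3 libraries against the same 3 saline libraries, for each region and RNA kind, so the 3 treatments share their controls. Most members named below were picked by their small p. Where their 3 treated values lie apart from the 3 saline values, that follows in part from the choice. It is a description and no support for a drug effect, and the share of all genes so separated was not computed. edgeR called 0 of 82 to 84 members tested in each of the 12 comparisons, and 0% of all genes. Unadjusted p-values below 0.05 were found in DVC input for 0, 0 and 0 members with AC3174, AC170222 and the combination (all genes 4.81%, 4.18% and 5.38%), in DVC IP for 4, 5 and 9 (all genes 6.58%, 5.25% and 5.44%), in MBH input for 13, 2 and 42 (all genes 8.59%, 6.57% and 8.57%) and in MBH IP for 0, 0 and 0 (all genes 1.98%, 1.56% and 0.86%). The share of members was thus near or below that of all genes except in DVC IP and MBH input with the combination and MBH input with AC3174. DESeq2 called 4 members in DVC IP with AC170222 (Cox5a, Cyc1 and Ndufab1 lower, Cox7b2 higher), Cox7b2 there with the combination, Ndufa10 in MBH input with AC3174 (lower) and 0 in the other 9 comparisons. The nearly silent Cox7b2 had a mean of 0.751 CPM in DVC IP and DESeq2 log2 values of 23.4 and 25.3, so its calls rest on few counts. The share of all genes called by DESeq2 was not set beside these calls.

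In DVC input no member reached an unadjusted p below 0.05 under any drug. Their median log2 differences were -0.07, -0.10 and 0.03 for AC3174, AC170222 and the combination, and once the library set entered the fit 0.25, -0.10 and 0.35. Leaving out 1 library at a time gave -0.21 to 0.01, -0.25 to -0.02 and -0.12 to 0.12. Sdha, with the smallest p under AC3174, had 1214, 1318 and 1320.1 CPM in saline and 1226, 1368 and 1898 CPM (log2 0.23 ± 0.17, adjusted p = 1.00), and Ndufs1 gave log2 0.19 ± 0.17, adjusted p = 1.00. Under AC170222 the complex I accessory subunits Ndufb9 (log2 -0.28 ± 0.16, adjusted p = 1.00) and Ndufa7 (log2 -0.28 ± 0.21, adjusted p = 1.00) had the smallest p, and under the combination Sdhb (log2 0.24 ± 0.14, adjusted p = 0.939) and Cox6a2, whose level was 0, 0 and 0.441 CPM in saline and 0, 0 and 0 CPM in the combination. The values of the groups overlapped for Sdha and Cox6a2 alike. Among the 25 abundant genes of the role panel, log2 differences ran from -0.19 (Atp5g2) to 0.23 (Sdha) with AC3174, from -0.25 (Cox7b) to 0.21 (Ndufs1) with AC170222 and from -0.27 (Atp5g2) to 0.24 (Sdhb) with the combination.

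In DVC IP the medians were below 0, at -0.42, -0.31 and -0.39, and each of these groups held 1 of the low libraries of set 2 while saline held its high one. With the library set as a covariate they were -0.54, -0.38 and -0.51, again with 0 calls by edgeR. Leaving out 1 library at a time moved the medians from -0.54 to -0.25 for AC3174, from -0.54 to -0.04 for AC170222 and from -0.43 to -0.30 for the combination. Cox5a had 354, 461 and 519 CPM in saline and 191.3, 153 and 190.3 CPM in AC170222 (log2 -1.34 ± 0.24, adjusted p = 0.852), without overlap, and DESeq2 called it (log2 -1.33 ± 0.23, adjusted p = 1.68e-07). Cyc1 had 519, 685 and 677 CPM in saline and 296, 261 and 379 CPM in AC170222 (log2 -1.03 ± 0.22, adjusted p = 0.852). Uqcrfs1 had 446, 488 and 464 CPM in saline and 126, 64.0 and 319 CPM in AC170222 (log2 -1.47 ± 0.54, adjusted p = 0.852). All 3 values of AC170222 lay below those of saline for Cox5a, Cyc1 and Uqcrfs1, and AC170222 1 and 2 were the lowest for Uqcrfs1. Of 1484 genes with a median above 150 CPM in DVC IP, 81 and 82 lay more than 1 log2 unit below the median in these 2 libraries. Other DVC IP libraries held 9 (combination 3) to 310 (AC3174 3) such genes, with 254 in saline 3 and 131 in AC170222 3. The counts of 81 and 82 were thus not unusual. In both AC170222 1 and 2, 61 genes were low. Saline 2 of MBH input, a library of another tissue and treatment, shared 45 of those low genes, Cox5a and Uqcrfs1 among them. The cause was not tested.

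With AC3174 in DVC IP, Ndufb8 had 779, 713 and 902 CPM in saline and 410.5, 565 and 477 CPM (log2 -0.71 ± 0.28, adjusted p = 0.677), and Ndufa2 gave log2 -0.92 ± 0.37, adjusted p = 0.677. With the combination, Cox7c had 616, 549.8 and 1042 CPM in saline and 319, 335 and 330.3 CPM (log2 -1.13 ± 0.41, adjusted p = 0.817), and the rare isoform Cox4i2 was at 0, 0 and 0 CPM in saline and 2.44, 1.91 and 0 CPM in the combination. In each of these pairs of groups the 3 treated values of Ndufb8 and Cox7c lay below the 3 saline values, and Cox4i2 was at or near 0 throughout. Both Ndufb8 and Cox7c were named for their small p, which favours such a separation. The panel ran from -0.96 (Atp5g2) to 0.23 (Ndufs1) with AC3174, from -1.47 (Uqcrfs1) to 0.22 (Ndufs1) with AC170222 and from -0.63 (Ndufa4) to 0.38 (Ndufs3) with the combination.

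In MBH input the members' medians were -0.46 under AC3174, -0.41 under AC170222 and -0.62 under the combination, where all genes were at 0.01, 0.04 and 0.08. Once the library set entered the fit the members' medians were 0.04, -0.39 and -0.11, and those of AC3174 and the combination moved toward or past 0. Saline 2 had the highest value of the 12 libraries for 64 of 78 members above 20 CPM. The like count was not made for other genes. In saline 2 members deviated by a median log2 of 0.89, short genes by 0.76 and long genes by -0.80. The upward shift was thus shared by short genes in general. Detected genes in MBH input ran from 12853, in saline 2, to 18657. Without 1 library at a time the members' medians ranged from -0.68 to -0.21 for AC3174 and from -0.61 to -0.15 for AC170222. For the combination they ranged from -0.81 to -0.36. Ndufa10, a complex I accessory subunit, had 451, 715 and 385 CPM in saline, 300.1, 334 and 293 CPM in AC3174 (log2 -0.75 ± 0.21, adjusted p = 0.56), 392, 342 and 329 CPM in AC170222 (log2 -0.56 ± 0.21, adjusted p = 0.709) and 304, 328 and 347 CPM in the combination (log2 -0.68 ± 0.21, adjusted p = 0.538). All AC3174 and combination values of Ndufa10 lay below the 3 saline values, and those of AC170222 overlapped them. Next by p were Ndufv2, the partner of Ndufv1, with AC3174 (log2 -0.68 ± 0.27, adjusted p = 0.56), Ndufa13 with AC170222 (log2 -0.63 ± 0.27, adjusted p = 0.709) and Ndufb4 with the combination (171, 254 and 116 CPM in saline and 101, 90.6 and 80.5 CPM, log2 -1.003 ± 0.31, adjusted p = 0.565). Medians by complex under the combination were -0.65 (I), -0.35 (II), -0.55 (III), -0.73 (IV) and -0.61 (V). Other genes of 100 CPM or more had medians of -0.58, -0.38, -0.12 and 0.07 in the 4 bins of transcript length and members -0.73, -0.49, -0.23 and -0.47. The panel ran from -0.70 (Cox5b) to 0.26 (Uqcrfs1), from -0.67 (Cox7a2) to 0.38 (Cyc1) and from -1.01 (Cox5b) to 0.27 (Ndufs1) with AC3174, AC170222 and the combination.

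In MBH IP the medians were -0.36, -0.01 and -0.15, and once the library set entered the fit they were -0.49, -0.02 and -0.38. Leaving out 1 library at a time moved them from -0.55 to -0.23, from -0.21 to 0.11 and from -0.34 to 0.01, so the sign of the last 2 rests on single libraries. Uqcrb had 294, 306 and 362 CPM in saline and 171, 222 and 209.7 CPM in AC3174 (log2 -0.69 ± 0.41, adjusted p = 1.00), and Cox4i1 gave log2 -0.57 ± 0.35, adjusted p = 1.00. All 3 AC3174 values of Uqcrb lay below the 3 saline values. Ndufab1 was the abundant member with the smallest p under AC170222 (log2 0.51 ± 0.40, adjusted p = 1.00) and Ndufa3 under the combination (log2 -0.91 ± 0.51, adjusted p = 1.00), next to the nearly silent Cox8b, which stood at 0.304, 0.535 and 0 CPM in saline, 0, 0 and 0 CPM in AC170222 and 0, 0 and 0 CPM in the combination. The panel ran from -0.86 (Uqcrfs1) to 0.01 (Sdhc), from -0.43 (Sdhd) to 0.60 (Ndufs3) and from -0.34 (Cox7b) to 0.40 (Atp5a1).

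**Figure D5:**
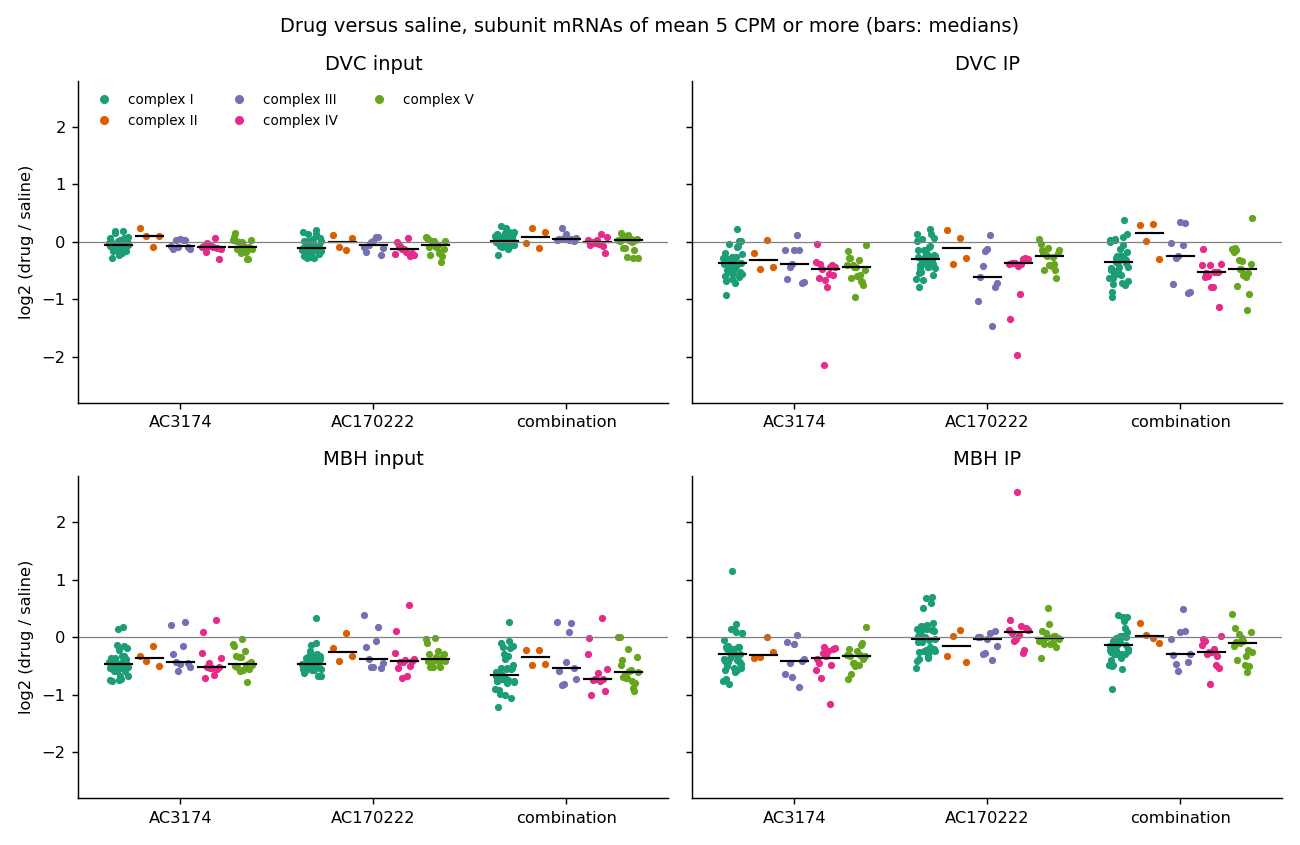
Log2 difference from saline of each member with a mean of 5 CPM or more, for each drug, region and RNA kind, coloured by complex, with black bars at the medians. The members of MBH input lie mostly below 0 under each drug, those of DVC input lie around 0, and edgeR called none of them.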

How the data were processed

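Total RNA and phospho-S6 immunoprecipitated RNA of 2 brain regions were made into SMART-Seq v4 and Nextera XT libraries, a method that does not mark strand, per the labels' protocols. The deposited values are raw counts of reads per gene. TopHat2 2.0.11, HTSeq 0.6.1p1 and the build GRCm38 are named in the submitters' processing notes. The sources used here do not give the annotation, the strand setting or other parameters. The table held no row without a gene, and 36429 of its 38293 identifiers matched GENCODE M21 on GRCm38. Non-coding rows whose symbol matched the rule, 5 in number, were left out, and coordinates are of GRCm38. Promoters came from RefSeq (GRCm38.p6), which held 67 of the 85 members.

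Groups were taken from the labels, 3 libraries in each of 16. Counts were tested with edgeR 4.0.16 in R 4.3.3 (filterByExpr, TMM scaling, quasi-likelihood F test), with Benjamini-Hochberg adjustment over all genes tested and a call at an adjusted p below 0.05. IP and input were compared within a region with treatment as a term, the regions by an interaction term and in input alone, and each drug against saline in 4 separate fits, one for each region and RNA kind. SE is the absolute log2 difference divided by the square root of F. DESeq2 1.42.0, RLE scaling, no count filter, replicate blocks, the library set as a covariate, leaving out each library or homogenate and leaving out IP libraries with under 12000 detected genes were the alternatives. In the IP-versus-input and region-difference fits the last of these also left out the input libraries of the same homogenates. The fits were also run on simulated counts drawn independently for each library. Those counts hold no library sets, shared homogenates or libraries of low complexity, so they do not test these limits, and no result here rests on them. Totals ran from 21782798 to 191252522 counts per library. They do not bound the error from genes missed in IP libraries with few detected genes, and the number of libraries limits the precision.

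Input and IP libraries of the same number come from the same homogenate per the labels' protocols. Over 2369 and 2341 genes of 100 CPM or more, the deviations of the 12 pairs from their group means had a median correlation of 0.04 in DVC (-0.17 to 0.12, 3 of 12 pairs above 0.1) and 0.02 in MBH (-0.23 to 0.13, 2 of 12 pairs above 0.1).

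The members and the gene lists were chosen with earlier results of these data known. Named genes were, for each complex, up to 3 called members in each direction with the largest difference (2 where fewer than 8 members were detected) and a mean of 5 CPM or more, every member called against the majority, the 2 members of smallest p in a drug comparison without calls, and a fixed panel by role. The DESeq2 calls, Cox8c and the gene examples of the levels per kb were named after their values were seen. The values of 1 complex I member are counted in all totals but are not reported here.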

Additional observations from a re-analysis of the deposited data

Results flagged for a closer look

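The IP-versus-input difference was tested between DVC and MBH with edgeR's interaction term, and 57 members differed, all with the larger difference in DVC. The difference of the log2 differences was 1.57 for Ndufa4, 1.46 for Ndufa1 and 1.43 for Ndufs4 in complex I, 0.98 for Sdhd and 0.88 for Sdhc in complex II, and 1.33 for Uqcrh and 1.29 for both Uqcr10 and Uqcr11 in complex III. It was 1.61 for Cox7a2, 1.52 for Cox7b and 1.39 for Cox6c in complex IV, and 1.56 for Atp5mpl, 1.46 for Atp5k and 1.41 for Atp5j2 in complex V. These are the named members of the report, and each drew attention because the 2 regions differed in the same contrast.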

How the results depend on the processing

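The IP-versus-input count in DVC was 73 of 84 members. It fell to 47 within library set 3 (median log2 0.91) and to 0 within set 2 (0.36), where Atp5b and Atp5g3 had log2 differences of -0.0201 and -0.000748. Each of these fits holds 8 libraries, and the cause was not tested. Leaving out each homogenate gave 70 to 76. In MBH the count was 0 of 84, against 3 with DESeq2, 1 without AC3174 3 and 0 to 1 over all homogenates left out. The region difference (57 members) gave 34 with RLE scaling, 36 to 59 when each homogenate number was left out, the lowest of these without AC170222 1, and 57 with DESeq2. DVC against MBH input (14 members) gave 11 to 16 without each library pair. In the 12 drug comparisons edgeR called 0 members under every alternative, and DESeq2 called 4 in DVC IP with AC170222, 1 there with the combination and 1 in MBH input with AC3174. The causes of these changes were not tested.

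With the homogenate as a replicate block, the pairing of input and IP libraries, 62 members were called in DVC, 0 in MBH and 30 for the region difference. With treatment and sample number as a block, 15 were called between the regions in input. For the DESeq2, block and RLE fits the share of all genes called was not set beside the members' counts. These counts therefore show how the calls depend on the fit and not an excess over other genes. The drug comparisons gave 0 with the sample number as a block, a number that the labels do not tie to a shared batch.

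Values of the nearly silent isoforms (Cox8c, Cox7b2, Cox6a2, Cox8b) rest on few counts, and counting intervals cover neither amplification nor dissection. Read depth did not secure abundant members in MBH IP. With AC3174 against saline there, Ndufa10 (mean 332 CPM) had an SE of 1.60 log2 and Uqcrfs1 (258 CPM) 1.69. Library AC3174 3 of MBH IP had counts for 76 members. The 5 IP libraries of low complexity in MBH, the library sets and the lack of strand limit the comparisons above.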
